A study of Mus musculus with 6 samples.

Results

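The HSP70 chaperone family was taken by gene symbol from the deposited expression table, as Hspa2, Hspa1l, Hspa8, Hspa1a, Hspa1b, Hspa4, Hspa4l, Hspa5, Hspa9 and Hspa13. All 10 members were found among the 29333 genes of the table, and all 10 were among the 17480 genes tested. The rule goes by gene name and uses no measured value, but earlier results of these data were known when the members were chosen. RNA sequencing was done on testis of Hsf5 knockout mice (Hsf5-/-) and of controls at postnatal day 16, an age when the leading germ cells are in pachytene, a long stage of meiotic prophase. The labels call the controls wild type, whereas the design text allows Hsf5+/- animals among them, and no other allele or treatment is given. Each group has 3 samples in the labels and 2 with values here: knockout 1 and knockout 3 were set against control 1 and control 2, and knockout 2 and control 3 were not analysed here. Nothing in the labels ties the samples to separate animals, so the p-values reflect spread among these libraries only, which may be technical.

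HSP70 proteins bind unfolded stretches of other proteins and release them in a cycle of ATP binding and hydrolysis, driven by J-domain co-chaperones and reset by nucleotide exchange factors. HSPA8 does this constitutively in the cytosol, HSPA1A and HSPA1B are made on stress, HSPA5 works in the endoplasmic reticulum and HSPA9 in mitochondria, while the longer HSPA4 and HSPA4L act chiefly as exchange factors. In the mouse testis HSPA2 is made from meiotic prophase onward, and males that lack it are infertile with arrest in meiosis, while HSPA1L is known from later spermatids.

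Depth lay between 16209093 and 16824757 recovered reads in the knockout libraries and between 18259304 and 18557898 in the controls. Hsf5 itself, the targeted heat shock factor, had normalised read counts of 1926 and 1602 in knockouts 1 and 3, against 2541 and 3147 in controls 1 and 2. That is a log2 fold change of -0.69 (SE 0.12, limma Benjamini-Hochberg adjusted p = 0.00716), lost without knockout 3 (adjusted p = 0.072) and without control 2 (adjusted p = 0.108), and gene-level counts cannot tell which stretch of the transcript was left. Markers of the tissue were present: 15 of 15 pachytene, 13 of 13 early prophase and 12 of 12 Sertoli cell markers were abundant enough to test. The threshold was a mean of at least 10 over all 4 libraries, so a marker could pass through the controls alone. The pachytene marker Pou5f2 had 1 and 3 reads in knockouts 1 and 3, against 63 and 326 in controls 1 and 2. Of 10 spermatid markers in the table, 3 were abundant enough to test and 0 were called by limma, edgeR or DESeq2 or had an unadjusted p under 0.05: Spaca1 had 143 and 92 reads in knockouts 1 and 3, against 132 and 130 in controls 1 and 2, and Gapdhs and Tssk6 had fewer. The protamine genes Prm1 and Prm2 had at most 4 and 3 reads in any library. All 15 pachytene markers fell by limma (median log2 fold change -2.39), while 4 of 12 Sertoli markers rose. Of 12 spermatogonial markers 4 rose and 1, Id4, fell, at -0.92 (-0.84 without control 2). Neither the fall of Id4 nor any of these rises kept its limma call in every fit without 1 library. Of the spermatogonial markers edgeR called 3 higher and DESeq2 2, and both called 4 Sertoli markers higher. Of the 13 early prophase markers limma called 1 lower, Hormad1 at -0.43 (Benjamini-Hochberg adjusted p = 0.0109), and 0 higher. Their median log2 fold change was -0.15, and at an unadjusted limma p under 0.05, 4 were lower and 1 higher. Of 7 Leydig cell, 4 myoid, 7 macrophage and 5 endothelial markers, limma called 0, with 1 at an unadjusted p under 0.05, and edgeR and DESeq2 also called 0. The summed normalised count of the pachytene markers was 17736 and 13657 in knockouts 1 and 3, against 53228 and 83287 in controls 1 and 2, so the controls also differed from each other.

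In the knockout testes 4 of the 10 members fell, 1 rose and 5 were not called, by limma with Benjamini-Hochberg adjustment over all genes and a threshold of 0.05. Over all tested genes 13.5% fell and 3.28% rose. The 4 that fell were Hspa2, Hspa4l, Hspa9 and Hspa4, and the 1 that rose was Hspa1b. The median log2 fold change of the members was 0.00, beside 0.01 for all tested genes. Knockout and control values did not overlap for 6 members, and they did not overlap for 61.7% of all tested genes.

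**Figure D1:**
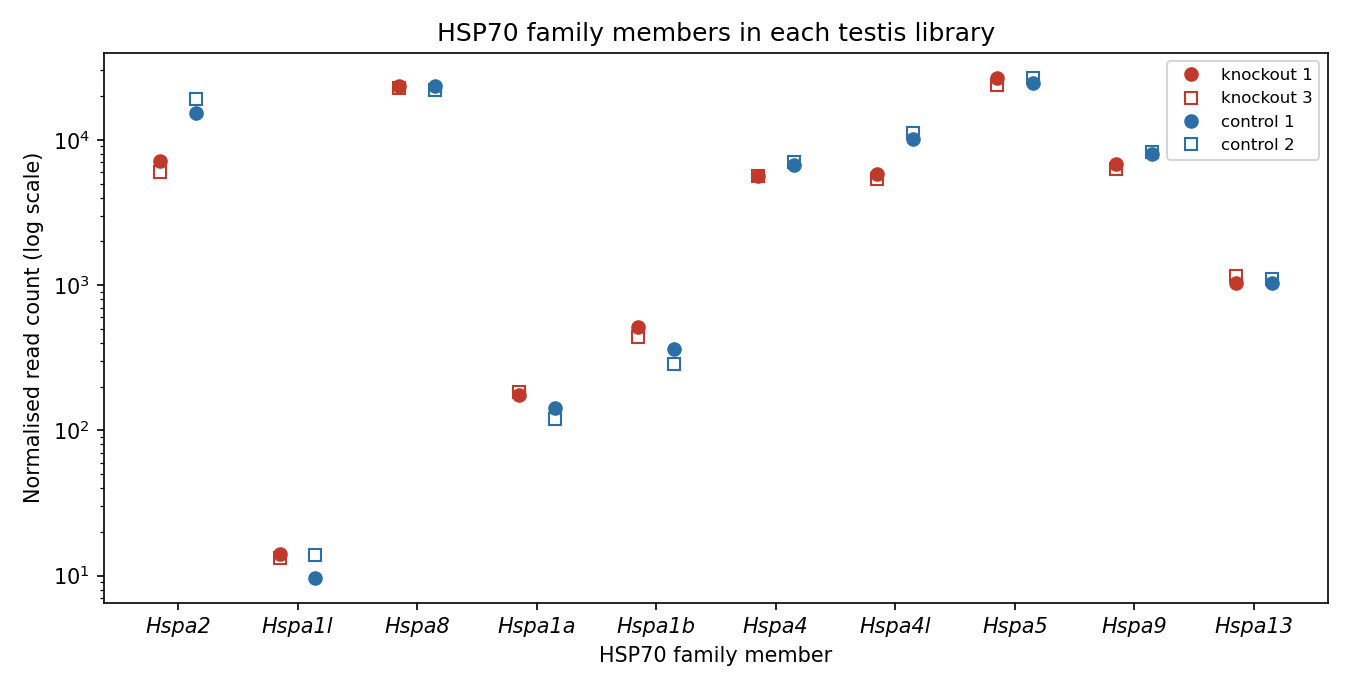
Normalised read count (log scale) of the 10 members, with 1 point for each of knockout 1, knockout 3, control 1 and control 2, knockouts drawn left. Hspa2 and Hspa4l stand lower in both knockouts, Hspa8, Hspa5 and Hspa13 lie together in all 4 libraries, and Hspa1l lies near 10 throughout.

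Hspa2 (ENSMUSG00000059970.8, chromosome 12), the germline member, showed the largest fall of the family. Its normalised read count was 7172 and 5987 in knockouts 1 and 3, against 15371 and 19204 in controls 1 and 2. Both knockouts lay well under both controls, and no library bridged the gap. The mean was 6579 ± 838 in knockouts and 17288 ± 2710 in controls (SD, n = 2 each), so the knockouts held 38.1% of the control mean. This gave a log2 fold change of -1.39 (SE 0.12, limma Benjamini-Hochberg adjusted p = 0.000293). It lay between -1.55 and -1.23 when each library was left out in turn, and Hspa2 kept its call each time.

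In bulk testis RNA, fewer cells of a type and less RNA per cell cannot be told apart, and Hspa2 is a gene of the cells whose markers fell. Of the 15 pachytene markers, 14 had a lower log2 fold change than Hspa2, and of all 17480 tested genes 1094 did (6.26%). Between the controls, control 2 exceeded control 1 in Hspa2 by 0.32 on the log2 scale. The pachytene markers had a median difference of 0.91 between the same libraries and varied widely around it. They ranged from Tdrd5 (3760 and 4324 normalised reads in controls 1 and 2) to Ccna1 (43.6 and 337). Their part in the fall of Hspa2 was not tested. The genes whose pattern over the 4 libraries lay nearest to that of Hspa2, by root mean square distance of centred log2 values among 14920 genes, were Pdha2 (0.0233), which encodes a germ cell subunit of pyruvate dehydrogenase, Ccpg1os (0.0421) and Iqcg (0.0456). Pdha2 had normalised read counts of 1174 and 994 in knockouts 1 and 3, against 2561 and 3071 in controls 1 and 2. In all, 40 genes lay within 0.1 of Hspa2.

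Hspa1l (ENSMUSG00000007033.5, chromosome 17), the other germline member, was barely detected. It had 14 and 13 reads in knockouts 1 and 3, against 10 and 14 reads in controls 1 and 2, and the groups overlapped. Its normalised read count averaged 13.7 ± 0.505 in knockouts and 11.8 ± 2.96 in controls (SD, n = 2 each). The log2 fold change of 0.22 was not called (SE 0.51, limma Benjamini-Hochberg adjusted p = 0.812), and its 95% interval ran from -0.95 to 1.38, so a change of the size seen in Hspa1b would not have been detectable at this depth. Without control 1 the value was -0.021. Part of these reads may belong elsewhere, because 71.4% of the 50-base windows of Hspa1l lie in the antisense gene Gm10501 too, which had 10 and 9 reads in knockouts 1 and 3, against 10 and 5 in controls 1 and 2, and no source used here gives the strand setting of the counting. Among the nearest in pattern to Hspa1l were ENSMUSG00000121225 (0.00916) and Blvrb (0.0190), a biliverdin reductase. At so low a count the likeness is weak, and 159 genes lay within 0.1 of it.

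The stretches before the transcription starts of both germline members, of the inducible pair and of Hspa4l are shown because these are the members that moved most, or that share a locus with one that did. Each holds the 250 bases before the RefSeq start on build GRCm38.p6, read 5′ to 3′ on the gene's own strand. Capitals mark matches to the paired heat shock units GAANNTTC or TTCNNGAA and to the CCAAT box, CCAAT or ATTGG, all searched on both strands. The stretches lie at chr12:76404120-76404369 (plus strand) for Hspa2, chr17:34972453-34972702 (plus strand) for Hspa1l, chr3:40745363-40745612 (plus strand) for Hspa4l, chr17:34972157-34972406 (minus strand) for Hspa1a and chr17:34959239-34959488 (minus strand) for Hspa1b.
Hspa2: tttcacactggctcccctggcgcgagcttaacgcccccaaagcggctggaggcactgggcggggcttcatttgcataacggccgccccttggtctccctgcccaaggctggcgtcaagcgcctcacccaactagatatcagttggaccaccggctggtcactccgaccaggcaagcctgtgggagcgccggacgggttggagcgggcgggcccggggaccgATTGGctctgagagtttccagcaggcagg
Hspa1l: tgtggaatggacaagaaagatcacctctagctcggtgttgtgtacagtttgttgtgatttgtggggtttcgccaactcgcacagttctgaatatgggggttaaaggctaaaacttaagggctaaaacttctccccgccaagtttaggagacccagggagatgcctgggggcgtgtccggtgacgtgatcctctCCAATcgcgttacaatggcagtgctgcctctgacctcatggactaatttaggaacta
Hspa4l: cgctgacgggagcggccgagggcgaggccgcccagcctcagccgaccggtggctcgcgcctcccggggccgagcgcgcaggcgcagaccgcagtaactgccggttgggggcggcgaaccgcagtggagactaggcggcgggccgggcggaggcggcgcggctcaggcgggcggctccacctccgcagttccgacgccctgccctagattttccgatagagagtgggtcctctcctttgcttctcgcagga
Hspa1a: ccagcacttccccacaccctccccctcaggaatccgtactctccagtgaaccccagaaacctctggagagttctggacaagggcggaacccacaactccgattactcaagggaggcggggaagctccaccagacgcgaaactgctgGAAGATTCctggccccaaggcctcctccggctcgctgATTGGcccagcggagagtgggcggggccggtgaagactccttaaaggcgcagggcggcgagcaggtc
Hspa1b: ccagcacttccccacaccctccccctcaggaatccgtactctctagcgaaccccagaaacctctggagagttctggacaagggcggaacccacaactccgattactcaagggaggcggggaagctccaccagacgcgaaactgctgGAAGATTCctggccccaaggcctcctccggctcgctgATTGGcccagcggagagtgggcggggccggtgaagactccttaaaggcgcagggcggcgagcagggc

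RefSeq held a promoter entry for 7 of the 10 members, and Hspa8, Hspa9 and Hspa13 had none. Of those 7, only the inducible Hspa1a and Hspa1b held paired heat shock units, each as GAAGATTC at 104 to 97 bases before the start. Such a pair was found in 12.8% of 32851 promoters of the same length. None of the 7 held a longer run of 3 alternating units, which 0.466% of promoters hold, and none held TATAAA, which 12.4% hold. Only these exact letters were searched, so other forms of a TATA box were not counted. The CCAAT box was found in 5 of the 7, against 33.8% of all promoters: once in Hspa2 at 29 to 25 bases before the start, once in Hspa1l at 57 to 53, once each in Hspa1a and Hspa1b at 67 to 63, and 4 times in Hspa5. The promoters of Hspa1a and Hspa1b are 98.8% identical, so their matches do not count as separate finds. Hspa2 and Hspa4l, the members with the largest falls, held no paired heat shock unit in these windows. Hspa1l and Hspa1a start 547 bases apart and run in opposite directions, and Hspa1b starts 12918 bases from Hspa1a. These matches are letters in a window, not measured binding.

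Hspa8 (ENSMUSG00000015656.18, chromosome 9), the constitutive cytosolic member, showed no detectable difference. It had normalised read counts of 23620 and 22724 in knockouts 1 and 3, against 23301 and 22026 in controls 1 and 2. The groups overlapped, and the log2 fold change was 0.03 with a 95% interval from -0.11 to 0.17 (limma Benjamini-Hochberg adjusted p = 0.767). Of the 50-base windows of Hspa8, 74.8% are shared with another gene, and 70.0% with Gm15459, a processed copy. Gm15459 had 107 and 80 reads in knockouts 1 and 3, against 106 and 84 in controls 1 and 2. Since the handling of shared reads is unknown, these counts cannot tell how many reads Hspa8 lost.

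Set against Hspa8 within each library, which removes any effect of library scaling, Hspa2 stood at a log2 ratio of -1.72 and -1.92 in knockouts 1 and 3, against -0.60 and -0.20 in controls 1 and 2. The ratio was lower in both knockouts than in either control, by -1.42 on the log2 scale. With 2 libraries per group a two-sided exact permutation test cannot go below p = 0.333, and it gave p = 0.333. Hspa1l against Hspa8 differed by 0.19 between the groups, with overlapping ratios (exact permutation p = 1), and by -0.094 without control 1.

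Hspa1a (ENSMUSG00000091971.4) and Hspa1b (ENSMUSG00000090877.4), the stress-inducible members on chromosome 17, stood slightly higher in the knockouts. Hspa1b had normalised read counts of 514 and 440 in knockouts 1 and 3, against 362 and 288 in controls 1 and 2. Hspa1a had 175 and 182 in knockouts 1 and 3, against 142 and 119 in controls 1 and 2. In neither gene did the groups overlap, and both were lower in control 2 than in control 1. Hspa1b rose by 0.56 on the log2 scale (SE 0.16, limma Benjamini-Hochberg adjusted p = 0.0447), whereas Hspa1a, at 0.46 (SE 0.19), was not called (limma Benjamini-Hochberg adjusted p = 0.145).

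The rise of Hspa1b rested on all 4 libraries. Leaving out any 1 of them ended the call, with limma Benjamini-Hochberg adjusted p = 0.265 without knockout 1, 0.122 without knockout 3, 0.0557 without control 1 and 0.263 without control 2. The edgeR test (adjusted p = 0.0624) and DESeq2 (adjusted p = 0.0625) did not call it either, and the authors' deposited table gives Hspa1b an adjusted p of 0.0625. Reads cannot be split cleanly within the pair, since 62.3% of the 50-base windows of Hspa1b are also in Hspa1a, and their promoters differ at 3 of 250 bases. Summed, a choice made after seeing the data, the pair had 689.5 and 623 normalised reads in knockouts 1 and 3, against 503 and 407 in controls 1 and 2. That sum rose by 0.53 on the log2 scale (SE 0.14, limma Benjamini-Hochberg adjusted p = 0.0321). Sertoli cell markers moved the same way, with a summed normalised count of 131798 and 125213 in knockouts 1 and 3, against 111540 and 104421 in controls 1 and 2. Spermatogonial markers did so too, at 17419 and 17309 in knockouts 1 and 3, against 16019 and 14347 in controls 1 and 2. The part of either cell type in the rise was not tested. Relative to the inducible pair, Hspa2 stood at a log2 ratio of 3.38 and 3.26 in knockouts 1 and 3, against 4.93 and 5.56 in controls 1 and 2, a difference of -1.92 (two-sided exact permutation p = 0.333, the smallest possible).

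**Figure D2:**
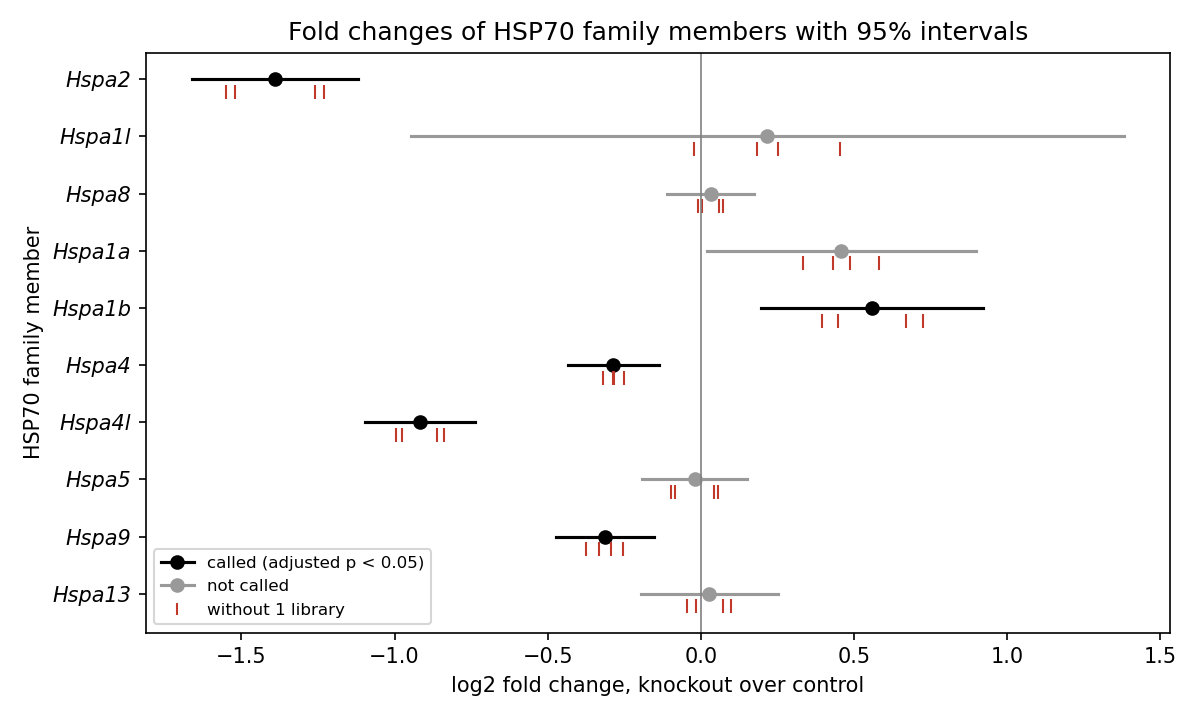
Log2 fold change of knockout over control for each member (points) with its 95% interval (bars), black where called and grey where not, and red ticks for the value without each library in turn. Hspa2 at -1.39 and Hspa4l at -0.92 lie clear of 0 with all ticks below it, while the interval of Hspa1l runs from -0.95 to 1.38.

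Among the HSP110 branch, Hspa4l (ENSMUSG00000025757.14, chromosome 3), which is abundant in testis and needed for normal male fertility in the mouse, fell clearly. It had normalised read counts of 5852 and 5407 in knockouts 1 and 3, against 10063 and 11215 in controls 1 and 2. Both knockouts lay far under both controls, and their mean was 52.9% of the control mean. This gave a log2 fold change of -0.92 (SE 0.08, limma Benjamini-Hochberg adjusted p = 0.000293), and it stayed between -0.995 and -0.84 with the call kept without each library in turn. As for Hspa2, 14 of the 15 pachytene markers had lower values than Hspa4l.

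Its relative Hspa4 (ENSMUSG00000020361.14, chromosome 11), expressed in most tissues, fell by less. Normalised read counts were 5650 and 5632 in knockouts 1 and 3, against 6714 and 7038 in controls 1 and 2, with no overlap. The knockout mean was 82.0% of the control mean, a log2 fold change of -0.29 (SE 0.07, limma Benjamini-Hochberg adjusted p = 0.0199). Without any 1 library the Hspa4 call was lost, with limma Benjamini-Hochberg adjusted p = 0.107 without knockout 1, 0.131 without knockout 3, 0.0629 without control 1 and 0.168 without control 2, while the value stayed between -0.32 and -0.25.

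The organelle members parted. Hspa5 (ENSMUSG00000026864.14, chromosome 2), the chaperone of the endoplasmic reticulum, had normalised read counts of 26537 and 23828 in knockouts 1 and 3, against 24411 and 26629 in controls 1 and 2. These values overlapped, with a log2 fold change of -0.02 and a 95% interval from -0.19 to 0.15 (limma Benjamini-Hochberg adjusted p = 0.889). Hspa13 (ENSMUSG00000032932.16, chromosome 16), a truncated microsomal member without a substrate-binding domain, had 1039 and 1147 in knockouts 1 and 3, against 1039 and 1104 in controls 1 and 2. It also overlapped between the groups, at a log2 fold change of 0.03 (limma Benjamini-Hochberg adjusted p = 0.881).

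Hspa9 (ENSMUSG00000024359.11, chromosome 18), which pulls proteins into mitochondria and folds them there, fell slightly. It had normalised read counts of 6827 and 6278 in knockouts 1 and 3, against 8020 and 8250 in controls 1 and 2. Both knockouts were lower than both controls, with a log2 fold change of -0.31 (SE 0.07, limma Benjamini-Hochberg adjusted p = 0.0172). The call held without knockout 1 (limma Benjamini-Hochberg adjusted p = 0.0394) and was lost without knockout 3 (0.157), control 1 (0.0842) or control 2 (0.173). Against Hspa5, Hspa2 stood at a log2 ratio of -1.89 and -1.99 in knockouts 1 and 3, against -0.67 and -0.47 in controls 1 and 2, a difference of -1.37 (two-sided exact permutation p = 0.333, the smallest possible).

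Changing the scaling of the libraries moved all genes together. The median log2 fold change of all tested genes was 0.01 as deposited, 0.12 with library totals and -0.23 when libraries were scaled to the Sertoli markers. Relative to the median as deposited, Hspa2 lay at -1.41, Hspa4l at -0.93, Hspa9 at -0.33, Hspa4 at -0.30 and Hspa8 at 0.02. A scaling shifts all genes alike, so these differences are nearly the same under any scaling by construction and say nothing of stability. The calls of Hspa4 and Hspa9 were lost with library totals (limma Benjamini-Hochberg adjusted p = 0.105 and 0.073). Hspa1b lost its call with Sertoli scaling (limma Benjamini-Hochberg adjusted p = 0.193).

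The make-up of the family differed between the groups when levels were put on a per-length scale that also divides by library depth (RPKM, reads per kilobase of exon and unit of depth). Hspa2 took 15.1% and 13.7% of the summed family RPKM in knockouts 1 and 3, against 27.3% and 31.4% in controls 1 and 2. Hspa8 took 30.5% and 32.0% in knockouts 1 and 3, against 25.5% and 22.1% in controls 1 and 2. Shares must sum to the whole, so a member whose own count was not called, such as Hspa8, can take a larger one. The summed RPKM itself was 1066 and 994 in knockouts 1 and 3, against 1201 and 1257 in controls 1 and 2.

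In order of RPKM level, Hspa5 came first in both knockouts (372 and 339), then Hspa8 (326 and 318) and Hspa2 (161 and 136), with no overlap between neighbours. In the controls Hspa2 (328 and 395) overlapped Hspa5 (326 and 342), and both lay above Hspa8 (306 and 278). Below them the order was Hspa9, Hspa4 and Hspa4l in all 4 libraries. Hspa13 and Hspa1b overlapped in the knockouts but not in the controls, where Hspa13 was higher, and Hspa1a and then Hspa1l came last everywhere. Hspa1l stood at 0.337 and 0.324 RPKM in knockouts 1 and 3, against 0.222 and 0.305 RPKM in controls 1 and 2. The top of this order depended on the length used. With the longest coding transcript, an alternative added after seeing the data, Hspa8 came first in all 4 libraries. On that length Hspa2 took 11.6% and 10.4% of the family in knockouts 1 and 3, against 21.7% and 25.4% in controls 1 and 2. Shared sequence may also bear on levels compared between genes. Of the 50-base windows, 74.8% of Hspa8 and 66.3% of Hspa1a are shared with another gene, against 0% of Hspa2 and Hspa5. How shared reads were counted is unknown.

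**Figure D3:**
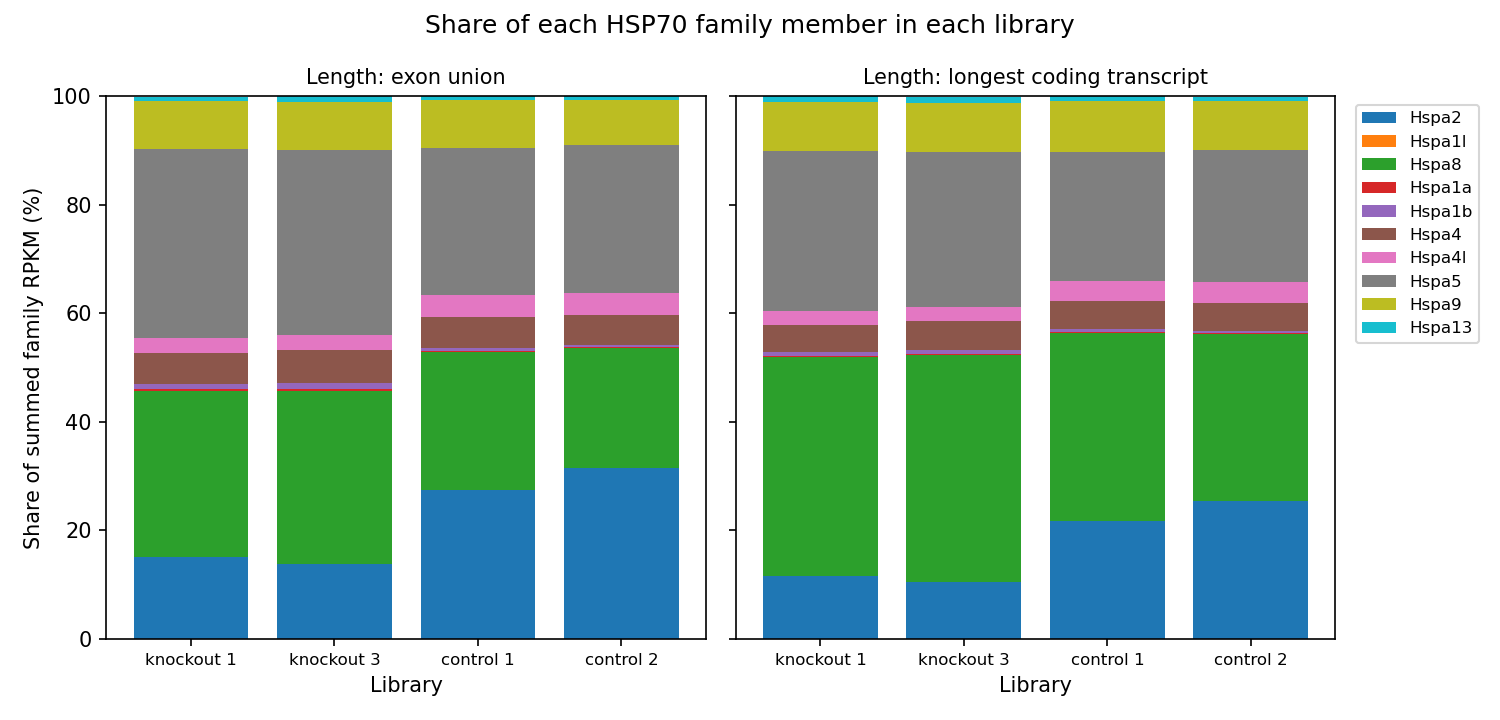
Share of the summed family RPKM (percent) taken by each member in knockout 1, knockout 3, control 1 and control 2, with the exon union (left) or the longest coding transcript (right) as length. The Hspa2 band is narrower in both knockouts on either length, at 15.1% and 13.7% in knockouts against 27.3% and 31.4% in controls on the exon union.

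Co-chaperones set the pace and the clients of HSP70. The counts of called genes per list, here and below, stand beside 13.5% lower and 3.28% higher over all tested genes by limma. Of 14 tested cytosolic J-domain genes, which deliver clients to HSP70, 4 fell (median log2 fold change -0.32). None of these, of the exchange factors or of the HSPA2 partners rose by limma, edgeR or DESeq2, also at an unadjusted p under 0.05. Dnajb13, known from the sperm axoneme, stood at -2.32 and Dnajc2, which sits on ribosomes, at -0.52, and both kept their limma call without each library. Dnajb3, a testis-enriched gene in the mouse, stood at -1.76 and Dnajb6, which restrains protein aggregation, at -0.49. Dnajb3 was at -2.28 without control 1 and -1.24 without control 2. Without knockout 3 and without control 2 the limma calls of Dnajb3 (Benjamini-Hochberg adjusted p = 0.0556 and 0.0588) and Dnajb6 (adjusted p = 0.185 and 0.201) were lost.

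Of 10 J-domain genes of organelles, edgeR called 3 lower and 0 higher, and DESeq2 3 lower and 1 higher. By limma 3 fell and 1 rose, with a median of -0.10. Those that fell were Dnajc15 (-0.41), of mitochondria, and Dnajc3 (-0.40) and Dnajc10 (-0.30), of the endoplasmic reticulum, and the one that rose was Dnajc19 (0.50), of the mitochondrial import motor. Dnajc3 lost its limma call without knockout 3 or control 2 (Benjamini-Hochberg adjusted p = 0.101 and 0.106), and Dnajc15 and Dnajc10 kept theirs only without control 1, with adjusted p otherwise between 0.0825 and 0.211. Dnajc19 lost its call without any 1 library (limma Benjamini-Hochberg adjusted p from 0.062 to 0.295). Of 10 nucleotide exchange factors, edgeR called 2 lower and DESeq2 1. By limma Bag5 (-0.86) and Bag6 (-0.44) fell, and the median of the 10 was -0.05. Both kept their limma call only without control 1 (Benjamini-Hochberg adjusted p otherwise 0.103 to 0.16 for Bag5 and 0.0892 to 0.136 for Bag6), where Bag5 was at -1.29, against -0.43 without control 2.

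Known partners of HSPA2 were tested for 5 of 7 genes, of which 2 fell, with a median of -0.35. Shcbp1l, which binds HSPA2 at the meiotic spindle in the mouse, had normalised read counts of 531 and 465 in knockouts 1 and 3, against 2143 and 3625 in controls 1 and 2. Its log2 fold change of -2.49 (SE 0.21, limma Benjamini-Hochberg adjusted p = 0.000293) kept its call without each library. Bag6, which stabilises HSPA2 in mouse spermatocytes, had 6737 and 6806 in knockouts 1 and 3, against 8283 and 10258 in controls 1 and 2. Cdk1, the cell cycle kinase that HSPA2 helps to assemble, stood at -0.35 and was not called (limma Benjamini-Hochberg adjusted p = 0.0602), nor was its cyclin Ccnb1 at 0.09 (adjusted p = 0.506) or the synaptonemal complex gene Sycp1 at -0.15 (adjusted p = 0.543). Of the transition protein genes, Tnp2 had at most 9 reads in any library and was not tested, and Tnp1 was not analysed here.

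HSP90 takes clients over from HSP70, and of 10 genes of that relay 3 fell by limma, with a median of -0.03. DESeq2 also called 3 of them lower, and edgeR 2. None rose after adjustment by limma, edgeR or DESeq2, and 2 were higher at an unadjusted limma p under 0.05. Hsp90aa1, the HSP90 form needed for meiosis in male mice, had normalised read counts of 30578 and 28482 in knockouts 1 and 3, against 44876 and 49808 in controls 1 and 2. It stood at -0.68 (SE 0.07, limma Benjamini-Hochberg adjusted p = 0.00064) and lost its call without control 2 (adjusted p = 0.0718). Its constitutive paralog Hsp90ab1, with 27378 and 27587 in knockouts 1 and 3, against 28036 and 25654 in controls 1 and 2, was not called at 0.04. St13, which links HSP70 to HSP90, stood at -0.40, and Ptges3, an HSP90 co-chaperone, at -0.24. The call of St13 was lost without knockout 3 (limma Benjamini-Hochberg adjusted p = 0.0527) and without control 2 (adjusted p = 0.0727), and that of Ptges3 without any 1 library (adjusted p from 0.119 to 0.196).

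Stress-response genes were read beside the inducible pair. Of 12 targets of HSF1, the general stress regulator, Hsp90aa1 fell, Hspe1, the co-chaperonin of mitochondria, rose by 0.37 on the log2 scale, and 10 were not called by limma, with a median of -0.08. DESeq2 called 2 of the 12 higher, Hspe1 and the small heat shock protein gene Hspb1, whose log2 fold change was 0.49 by DESeq2 (Benjamini-Hochberg adjusted p = 0.0181) and 0.48 by limma (adjusted p = 0.064). The Hspe1 call was lost without any 1 library (limma Benjamini-Hochberg adjusted p from 0.0516 to 0.197). Of 15 genes of the endoplasmic reticulum stress response, edgeR called 2 lower and DESeq2 4, and neither called any higher. By limma 4 fell and 0 rose, with a median of -0.08 and 1 higher at an unadjusted p under 0.05. Those that fell were Sdf2l1 (-0.52), Hyou1 (-0.34), an HSP110 relative that was also the only 1 of 5 other HSP70 superfamily genes called, Hsp90b1 (-0.30) and the disulfide isomerase gene Pdia3 (-0.23). Sdf2l1 kept its limma call only without knockout 1 and Hyou1 only without control 1 (Benjamini-Hochberg adjusted p otherwise 0.0907 to 0.286 and 0.0621 to 0.147). Hsp90b1 and Pdia3 lost theirs without any 1 library (adjusted p from 0.0617 to 0.238). Of the other heat shock factors, Hsf1 (-0.05), Hsf2 (0.28) and Hsf4 (0.08) were not called by limma (Benjamini-Hochberg adjusted p = 0.73, 0.102 and 0.933), and Hsf3 was too low to test.

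**Figure D4:**
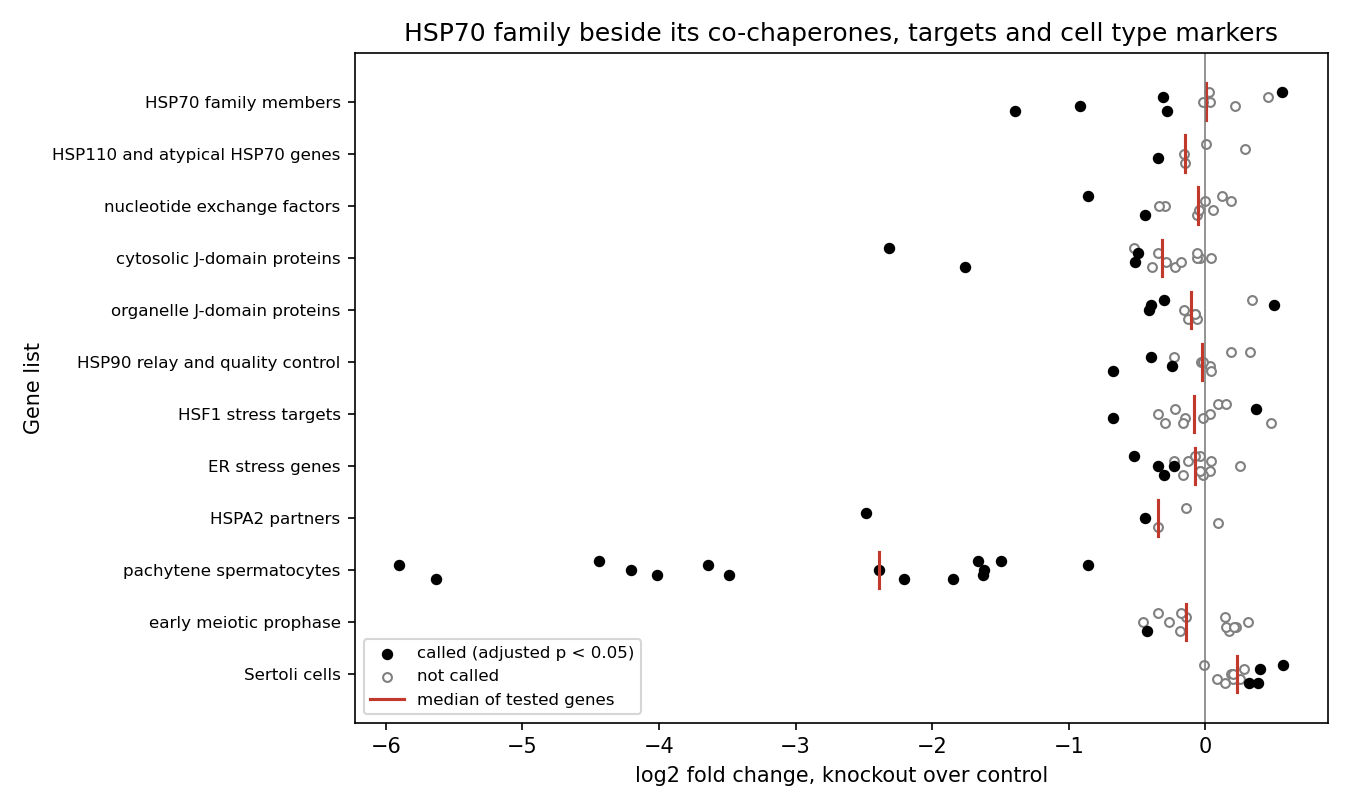
Log2 fold change of knockout over control for each tested gene of the family, of its co-chaperones, partners and targets, and of pachytene, early prophase and Sertoli cell markers, filled where called, with the list median as a red line. Hspa2 and Hspa4l are the leftmost family members, and all 15 pachytene markers are filled and lie left of 0.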

How the data were processed

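Total RNA of testis was sequenced from libraries of an NEBNext Ultra kit, per the labels. Build mm39 and the tools cutadapt, Bowtie2, featureCounts and DESeq2 come from the submitters' processing notes. Versions, settings, strand and the handling of shared reads are unknown, being not given in the sources used here. Per its headers, the authors' deposited table has 1 signal column per library, their mean, the log2 fold change and its error, the statistic as a score, and a raw and an adjusted p-value. The signal in each library was a read count divided by 1 size factor: 100% of values were whole multiples of 1 read within 1e-06, and dividing by it recovered whole reads. The deposited mean equals the mean of these 4 libraries.

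The main test was limma 3.58.1 (R 4.3.3) with a mean-variance trend, run on log2(value + 1) for genes averaging at least 10, with Benjamini-Hochberg adjustment and a threshold of 0.05. Pooled variance dominated, with 6.3 prior against 2 residual degrees of freedom. Fold changes on this scale understate the change of low genes. Alternatives were edgeR 4.0.16 and DESeq2 1.42.0 on the recovered reads, pseudocounts of 0.5 and 5, other filters, other scalings, and leaving out each library. Log2 ratios between members were tested by exact permutation. RPKM used exon lengths of GENCODE M21, matched by gene ID, which is not the authors' build. The limma script was tested on simulated data.

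Gene lists, like the members, were chosen with earlier results of these data known. Named genes were all members and heat shock factors, at most 4 called genes per pathway list by size of change, and the 3 nearest patterns of Hspa2 and Hspa1l, with predicted genes left out of the last, and 1 gene that the rule gave is not reported here. Hsp90ab1, Hspb1, Cdk1, Ccnb1, Sycp1 and the antisense or processed copies were named after their values were seen.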

Additional observations from a re-analysis of the deposited data

How the results depend on the processing

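With 2 libraries per group, limma leans on variance pooled over genes. The count of members that fell was 4, and it was 2 without a filter on low values, 2 with library totals, 0 without the mean-variance trend, and 2 to 3 without each library in turn. In the 2 of those settings that kept 2 members and in each leave-one-out fit, Hspa2 and Hspa4l kept their calls, and without the trend both were lost (limma Benjamini-Hochberg adjusted p = 0.0925). The count of members that rose was 1, and it was 0 with edgeR, with DESeq2, without a filter, without the trend, with Sertoli scaling, and 0 in each fit without 1 library. At an unadjusted p under 0.05, 4 members were lower and 2 higher both in limma as first run and without the trend. The edgeR test gave the same counts, and DESeq2 gave 4 lower and 1 higher. Over all 17480 tested genes, 5418 had an unadjusted p under 0.05 in limma as first run. Without the trend, limma called 40 genes lower and 0 higher over all genes, with 4283 at an unadjusted p under 0.05. Over all genes, limma called 2366 lower and 573 higher, against 815 and 37 without a filter, 2007 and 1511 with library totals (57.0% lower, against 80.5%) and 4321 and 52 with Sertoli scaling (98.8% lower). Leaving out a library gave 889 to 2096 lower and 31 to 337 higher.

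The log2 ratio differences ranged over the leave-one-out fits from -1.62 to -1.22 for Hspa2 to Hspa8, -2.24 to -1.61 for Hspa2 to the inducible pair, -1.47 to -1.27 for Hspa2 to Hspa5 and -0.094 (without control 1) to 0.46 for Hspa1l to Hspa8. Of the 5 uncalled members, Hspa1a kept its sign under every alternative run and the other 4 changed it. Over the leave-one-out fits Hspa1l ran from -0.021 to 0.46, with the low end without control 1, Hspa8 from -0.0083 (without control 2) to 0.073, Hspa5 from -0.098 to 0.058 (above 0 without knockout 3 and, at 0.043, without control 2) and Hspa13 from -0.043 (without knockout 3) to 0.099, also below 0 without control 1 (-0.015). With Sertoli scaling Hspa1l stood at -0.015, Hspa8 at -0.22 and Hspa13 at -0.22, and with library totals Hspa5 stood at 0.089. Where a scaling moved all genes, its construction accounts for the change, and for the other changes the cause was not tested. No paired analysis was possible because nothing in the labels ties a knockout library to a control library.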
